A study of Homo sapiens with 18 samples.

Results

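Of the 58870 genes counted in human melanoma cells overexpressing the small MAF transcription factor MAFG, 10 belong to the core of the Notch pathway and are described here. They were chosen by their symbols, with earlier results of these data known. Counts of them set against all genes are therefore descriptions and no test of the pathway. They comprise 3 receptors (NOTCH1, NOTCH2 and NOTCH3), 3 ligands (JAG1, JAG2 and DLL1) and 4 transcription factors of the HES and HEY families (HES1, HES6, HEY1 and HEY2). RNA-seq covered the melanoma cell lines WM164, SKMEL28 and A375, each carrying a lentiviral vector for either MAFG or, as the control, GFP, which makes 6 conditions with 3 libraries each and 18 libraries in all. The methods place both coding sequences under the EF1α promoter, so that every culture, controls included, was a transduced line grown in RPMI-1640 with serum. The labels do not say whether the 3 libraries of a condition came from separate cultures, so the p-values measure only the spread between these libraries, which may be technical.

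Notch signalling passes between touching cells. A ligand of the Jagged or Delta-like family on one cell binds a Notch receptor on its neighbour, the receptor is cut by ADAM proteases and then by γ-secretase, and its freed intracellular domain enters the nucleus, where it joins the DNA-binding protein RBPJ and a Mastermind coactivator. HES and HEY genes, which encode basic helix-loop-helix repressors, are the best known direct targets, although HES6 differs from HES1 in that it can antagonize HES1. In the melanocyte lineage, Notch signalling through RBPJ and HES1 is known for maintaining melanoblasts and melanocyte stem cells.

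Depth, as total counts in a library, ranged from 20122172 to 39025042. MAFG itself, which checks the labels, was higher in each MAFG library than in each GFP library of the same line, at 50.1 ± 4.43 against 24.4 ± 2.71 CPM, the count scaled to a common normalized library size (mean ± SD, n = 3), in WM164, 35.7 ± 1.52 against 23.0 ± 3.23 in SKMEL28 and 52.3 ± 8.86 against 29.99 ± 5.63 in A375 cells. In A375 cells this difference did not pass the test (log2 fold change 0.80, adjusted p = 0.0655 in the quasi-likelihood test of edgeR, with adjustment after Benjamini and Hochberg). It passed with DESeq2 (adjusted p = 7.80e-04), without a count filter (2.28e-06), with all 18 libraries in a model (0.00134) and with limma on the deposited TPM values (log2 fold change 2.33 on the log2(TPM + 1) scale, adjusted p = 6.43e-04). In TPM the MAFG difference was wider in each line. It was 2.5 to 3.51 with GFP and 20.9 to 27.5 with MAFG in WM164, and 3.23 to 4.43 and 14.1 to 19.35 in SKMEL28. In A375 it was 3.94 to 4.52 and 22.4 to 28.2. MAFG overlaps SIRT7 on its own strand and a further gene on the other, and why CPM and TPM differ was not tested. Libraries of the A375 MAFG condition differed most among themselves, with a chi-square per gene between pairs of up to 96.7 against at most 30.2 in the other conditions. Replicate 1 was in both of the high pairs (68.7 and 96.7), and the pair of replicates 2 and 3 was at 15.8. Normalized over all 18 libraries, as are the marker sums throughout, melanocyte lineage markers summed to 4695 to 5029 CPM in the WM164 GFP libraries and 4842 to 5105 in those of SKMEL28, but to only 36.1 to 42.2 in those of A375, whose markers MLANA and TYR had no count in any of the 6 libraries. Endothelial and epithelial markers summed to at most 1.42 CPM in every library, immune markers to at most 1.73 CPM and fibroblast markers to between 7.51 and 21.2 CPM.

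The 250 bases before the annotated starts of HES1 and HEY2 are shown because these were the members whose window held the core letters of the RBPJ site (TGGGAA, either strand), which are in capitals. The sequences are promoters of RefSeq on GRCh38.p14. The HES1 stretch is chr3:194135898-194136147 and the HEY2 stretch chr6:125749382-125749631, both on the plus strand.
HES1: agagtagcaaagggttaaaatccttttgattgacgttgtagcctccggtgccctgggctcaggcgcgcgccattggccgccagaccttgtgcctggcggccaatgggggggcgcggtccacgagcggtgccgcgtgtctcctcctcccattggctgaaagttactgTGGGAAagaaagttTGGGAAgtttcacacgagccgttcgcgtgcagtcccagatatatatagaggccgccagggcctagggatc
HEY2: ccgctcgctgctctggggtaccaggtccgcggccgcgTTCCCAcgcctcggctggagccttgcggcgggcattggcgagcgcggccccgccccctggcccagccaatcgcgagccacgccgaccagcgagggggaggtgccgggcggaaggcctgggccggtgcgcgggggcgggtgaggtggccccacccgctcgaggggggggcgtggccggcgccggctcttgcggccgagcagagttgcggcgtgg
The HES1 stretch held 2 such matches, starting at -84 and -70 relative to the start, on the strand shown. In the HEY2 stretch there was 1 match, at -213, which reads on the opposite strand. Among the 8 of the 10 genes matched in the RefSeq table, the other 6 had no match in this window, and 20.8% of all 35116 promoters of this length had at least 1. A second motif, the N-box CACNAG to which HES proteins bind, was matched 3 times in HES1, at -165, -132 and -58, and once in NOTCH3, at -211, against 32.0% of all promoters with at least 1 match. The E-box letters CACGTG and CATGTG (6.34% and 9.42% of all promoters) and TGACTCA, shared by AP-1 and MAF sites (4.20% of all promoters), were not found in the windows of the 8 genes. The windows of NOTCH2, HES6 and HEY2 lay inside their GENCODE genes, and that of JAG2 partly inside, so other starts of these genes were not searched. A match of letters is a description and shows no binding.

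In WM164 cells, MAFG overexpression changed 4 of the 9 tested Notch genes. The receptor NOTCH1 and the factor HEY2 rose by 1.80-fold and 1.83-fold, while HES1 and HEY1 fell. These 2 rises and 2 falls among 9 genes compare with 16.2% of all 15919 tested genes that rose and 15.6% that fell at an adjusted p of 0.05 or less. No overlap between MAFG and GFP libraries was seen for 6 of the 9 genes, against 43.4% of all tested genes. The median log2 fold change of the 9 genes was -0.04, and that of all genes was 0.00. Beside these changes, melanocyte lineage markers summed to 2638 to 2767 CPM in the MAFG libraries, below the GFP range given above, and the markers of dedifferentiated melanoma cells AXL, NGFR and EGFR rose from a sum of 9.64 to 13.0 CPM to one of 53.1 to 61.3 CPM. Of the tested lineage markers, SOX10 and S100B did not pass (log2 fold change -0.04 and 0.02, adjusted p = 0.568 and 0.855, edgeR). The part of the markers in the Notch changes was not tested.

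NOTCH1 (ENSG00000148400.11, chromosome 9 from 136494433 to 136546048, minus strand, GRCh38) encodes a receptor whose activation is a known driver of T-cell leukaemia. Its level was 26.4, 27.3 and 28.0 CPM in the WM164 GFP libraries and 47.6, 49.4 and 50.2 CPM in the MAFG libraries. No MAFG library came near the GFP range, and the log2 fold change was 0.85 (standard error 0.07, adjusted p = 3.31e-08, edgeR). NOTCH2 (ENSG00000134250.20, chromosome 1 from 119911553 to 120100779, minus strand), the most abundant receptor of the line, stayed at 426 ± 16.9 CPM with GFP and 416 ± 12.9 CPM with MAFG, and the ranges overlapped (log2 fold change -0.03, adjusted p = 0.679). Reads of NOTCH2 are uncertain to the extent that its near-identical NOTCH2NL copies share them. NOTCH3 (ENSG00000074181.9, chromosome 19 from 15159038 to 15200995, minus strand) was rare, at 1.15, 1.44 and 0.933 CPM with GFP and 1.85, 2.17 and 1.83 CPM with MAFG. Its ranges did not overlap, but the difference missed the threshold (log2 fold change 0.72, standard error 0.31, adjusted p = 0.0879). Per transcript length, in the deposited TPM values, NOTCH1 made up 6.77% ± 0.18 of the 3 receptors with GFP and 11.6% ± 0.28 with MAFG (SD, n = 3), and NOTCH2 92.7% ± 0.38 and 87.9% ± 0.25.

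None of the ligands chosen as members passed the test in WM164 cells. The ligands DLL3, DNER and DLK2, outside this choice, did pass and are described below. With GFP, DLL3 had a mean of 45.3 CPM and 13.6 TPM, where JAG1 had 6.07 TPM. JAG1 (ENSG00000101384.12, chromosome 20 from 10637684 to 10673999, minus strand) was the most abundant of the chosen ligands. It was at 46.6, 49.1 and 47.9 CPM with GFP and at 45.5, 43.8 and 38.2 CPM with MAFG. The MAFG libraries all lay below the GFP libraries by a small margin, with a log2 fold change of -0.17 and an adjusted p of 0.0918. JAG2 (ENSG00000184916.9, chromosome 14 from 105140982 to 105168824, minus strand) was at 1.34 ± 0.43 CPM with GFP and 1.31 ± 0.15 CPM with MAFG and overlapped. DLL1 (ENSG00000198719.9, chromosome 6 from 170282206 to 170306565, minus strand), with 12 counts in all GFP and 26 in all MAFG libraries, did not pass the filter on low counts and was not tested.

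Among the factors, HEY2 (ENSG00000135547.9, chromosome 6 from 125747664 to 125761269, plus strand), best known from heart and vessel development, rose from 41.9, 43.9 and 41.4 CPM to 79.3, 79.1 and 74.6 CPM, without overlap. The RefSeq start used for the promoter shown lies inside this GENCODE gene, downstream of its start. The log2 fold change of HEY2 was 0.87 (standard error 0.06, adjusted p = 4.89e-09, edgeR). An antisense gene, HEY2-AS1, overlaps it, and the sources used here do not state whether reads were counted by strand. HES1 (ENSG00000114315.4, chromosome 3 from 194136148 to 194138732, plus strand) moved the other way, from 13.1, 9.79 and 10.1 CPM with GFP to 5.92, 6.43 and 7.05 CPM with MAFG. All MAFG libraries were below all GFP libraries, and the log2 fold change was -0.76 (standard error 0.14, adjusted p = 3.13e-04). HEY1 (ENSG00000164683.17), a close relative of HEY2, was at 69.7, 64.6 and 60.7 CPM with GFP and 53.7, 48.7 and 48.0 CPM with MAFG. These ranges did not overlap either (log2 fold change -0.37, adjusted p = 4.70e-04), but on the deposited TPM values, where the log2 fold changes of all genes had a median of 0.14 rather than 0.00, the fall of HEY1 was no longer past the threshold (adjusted p = 0.322 on the log2(TPM + 1) scale). HES6 (ENSG00000144485.11, chromosome 2 from 238238267 to 238240662, minus strand) was at 26.3 ± 3.56 CPM with GFP and 25.4 ± 1.87 CPM with MAFG, with overlapping libraries. Per length, HEY2 went from 20.5% ± 1.52 to 36.6% ± 1.64 of the 4 factors' summed TPM and HEY1 from 45.6% ± 1.07 to 34.6% ± 1.43, while the sum itself was 46.9 to 53.0 TPM with GFP and 55.5 to 58.7 TPM with MAFG.

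**Figure D1:**
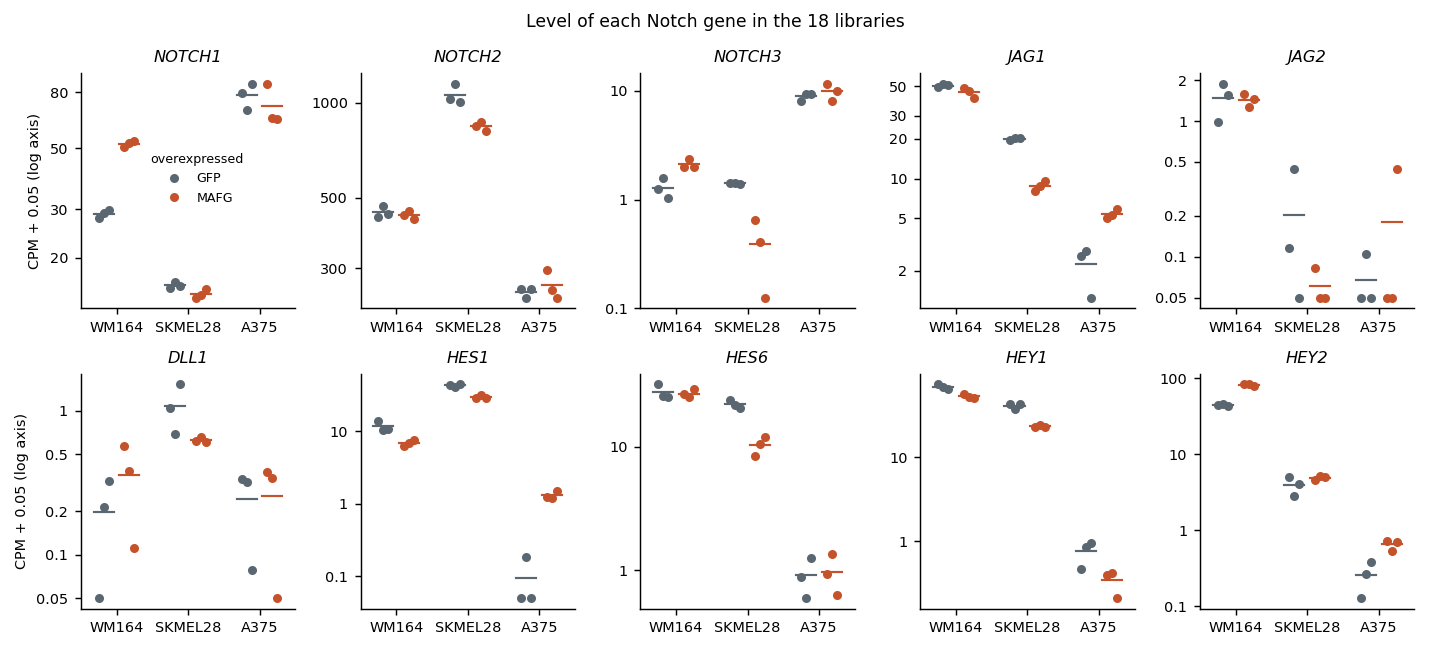
Level of the 10 Notch genes in each of the 18 libraries, as CPM plus 0.05 on a log axis, normalized over all 18 libraries; points are libraries, horizontal lines the mean of 3, grey GFP and orange MAFG. HEY2 and NOTCH1 sit higher with MAFG in WM164, JAG1, HES6 and HEY1 sit lower in SKMEL28, and A375 holds the lowest levels of the 4 HES and HEY factors.

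In SKMEL28 cells, the same overexpression was accompanied by lower levels only, among the genes that passed. Of 9 tested Notch genes, 6 fell, namely NOTCH2, NOTCH3, JAG1, HES1, HES6 and HEY1, and 0 rose (also 0 risen at an unadjusted p under 0.05 and 0 with DESeq2). Among all 15523 tested genes, 15.3% fell and 14.6% rose. The libraries of the 2 conditions did not overlap for 8 of the 9 genes, against 43.0% of all genes, and the median log2 fold change of the 9 was -0.82 against -0.01 for all genes. Markers of dedifferentiated melanoma summed to 11.3 to 15.3 CPM with GFP and 86.2 to 102 CPM with MAFG, and melanocyte lineage markers to 4233 to 4462 CPM with MAFG. Not all markers followed their sum. EGFR did not pass (log2 fold change -0.01, adjusted p = 0.992, edgeR). PMEL (-0.66), TYR (-0.23) and MITF (-0.20) fell, S100B (0.58) and TYRP1 (0.33) rose, and MLANA, DCT and SOX10 did not pass. The part of the markers in the Notch changes was not tested.

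JAG1 fell most clearly among the chosen ligands. It was at 18.7, 19.2 and 19.5 CPM in the GFP libraries and 7.70, 8.38 and 9.04 CPM in the MAFG libraries. The groups were far apart, with a 2.29-fold lower level (log2 fold change -1.19, standard error 0.11, adjusted p = 6.80e-07, edgeR). DLL1 was also lower in each MAFG library, at 0.995 ± 0.41 CPM with GFP and 0.554 ± 0.02 CPM with MAFG, but the difference did not pass (adjusted p = 0.182). JAG2 had 10 counts in all GFP libraries and 1 in all MAFG libraries and was not tested.

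The receptors had lower values to different degrees. NOTCH2 went from 980, 1090 and 965 CPM to 807, 828 and 780 CPM. This 1.26-fold fall kept the libraries apart and passed the test (log2 fold change -0.33, standard error 0.06, adjusted p = 6.39e-04, edgeR). NOTCH3 was at 1.31, 1.31 and 1.29 CPM with GFP and at 0.575, 0.342 and 0.0718 CPM with MAFG, which corresponds to 108 against 30 counts. All MAFG libraries were lower and scattered widely (log2 fold change -1.95, standard error 0.55, adjusted p = 0.0128), and without the GFP library of replicate 1 the adjusted p was 0.0502. Its log2 fold change ranged from -2.61, without MAFG replicate 1, to -1.49, without MAFG replicate 3. NOTCH1 was at 15.1 ± 0.34 CPM with GFP and 14.01 ± 0.53 CPM with MAFG and did not pass (log2 fold change -0.11, adjusted p = 0.451). NOTCH2 accounted for 97.9% ± 0.20 of the receptors' summed TPM with GFP and 98.1% ± 0.10 with MAFG.

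Of the factors, HES6 was at 22.9, 20.6 and 19.7 CPM with GFP and 7.95, 9.96 and 11.4 CPM with MAFG, a 2.16-fold fall without overlap (adjusted p = 6.81e-06). HEY1 went from 40.9, 35.9 and 40.8 CPM to 21.9, 22.9 and 21.7 CPM, a 1.77-fold fall (adjusted p = 1.51e-06). HES1, the most abundant of the 4 in this line, went from 41.5, 39.2 and 42.6 CPM to 27.2, 29.8 and 27.8 CPM, a 1.46-fold fall (adjusted p = 4.43e-05, all from the same edgeR test). No MAFG library reached the GFP range for any of these 3 genes. HEY2 was the exception, at 3.78 ± 1.06 CPM with GFP and 4.65 ± 0.28 CPM with MAFG, with overlapping libraries and an adjusted p of 0.350. The summed TPM of the 4 factors was 58.1 to 61.4 with GFP and 30.3 to 33.2 with MAFG. Within that sum, HES1 took 42.5% ± 0.91 with GFP and 48.8% ± 1.28 with MAFG.

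**Figure D2:**
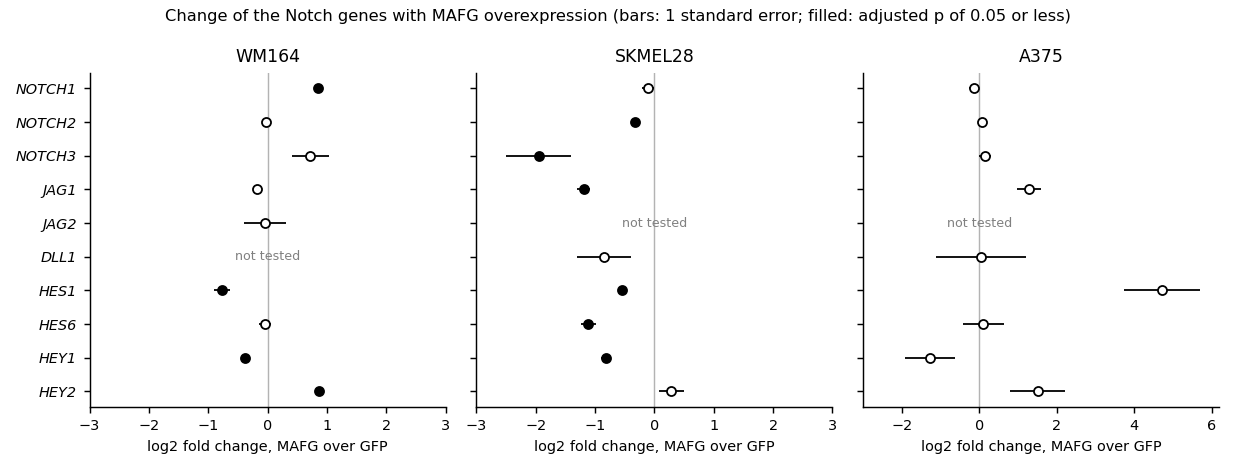
Log2 fold change of each Notch gene with MAFG over GFP in WM164, SKMEL28 and A375 cells, from the counts of 6 libraries per line; bars are 1 standard error and filled circles have an adjusted p of 0.05 or less. WM164 shows 2 filled circles on each side of 0, SKMEL28 shows 6 on the left and A375 none; JAG2 and DLL1 were not tested in every line, and the A375 axis is wider.

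**Figure D3:**
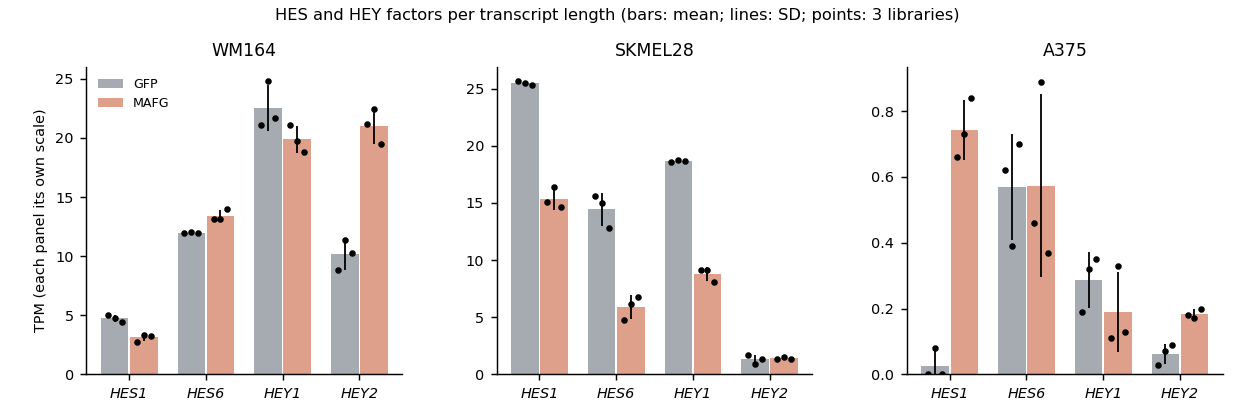
TPM of HES1, HES6, HEY1 and HEY2 in GFP (grey) and MAFG (orange) cells of each line; bars are means of 3 libraries, lines the SD and points the libraries, and each panel has its own scale. HEY2 goes from 20.5% to 36.6% of the sum in WM164, HES1, HES6 and HEY1 are lower with MAFG in SKMEL28, and the A375 values stay below 1 TPM.

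In A375 cells, none of the 9 tested Notch genes passed the test in edgeR, although 2 had an unadjusted p under 0.05 and the same 2, HES1 and JAG1, passed with DESeq2 (adjusted p of 2.12e-04 and 0.0190). In this line only 0.780% of all 15779 tested genes rose and 0.0634% fell, and 987 genes had an unadjusted p under 0.05. MAFG and GFP libraries were fully separated for 4 of the 9 genes, HES1, JAG1, HEY1 and HEY2, against 12.8% of all tested genes. The melanocyte lineage markers summed to 36.1 to 42.2 CPM with GFP and 120 to 173 CPM with MAFG, and most of the latter sum, 97.9 to 142 CPM, was SOX10, a neural crest factor whose counts were 266 to 411 with GFP and 3855 to 5630 with MAFG (log2 fold change 3.68, adjusted p = 2.12e-05, edgeR). Its part in the Notch values was not tested.

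HES1 had 0, 5 and 0 counts in the A375 GFP libraries and 47, 43 and 63 in the MAFG libraries. The groups were far apart at a low level, at 0.0502 ± 0.09 against 1.40 ± 0.22 CPM. The fitted log2 fold change was 4.71 with a standard error of 0.99 and an adjusted p of 0.0699. JAG1 had 98, 103 and 43 counts with GFP and 196, 199 and 251 with MAFG. All MAFG libraries were higher, at 2.42 ± 0.95 against 5.94 ± 0.65 CPM (log2 fold change 1.29, standard error 0.31, adjusted p = 0.131). Without the MAFG library of replicate 1, which was in both of the pairs that differed most, the adjusted p was 0.0433 for HES1 and 0.0448 for JAG1. Without the GFP library of replicate 2, the sole GFP library with HES1 counts, it was 0.0354 for HES1. In that last fit the GFP libraries held 0 counts of HES1, and the fitted value went to 8.62, which is no measure of the fold. The range over single libraries left out was 4.14 to 8.62.

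HEY2 had 3, 8 and 12 counts with GFP and 27, 18 and 28 with MAFG, and HEY1 had 16, 30 and 33 with GFP and 14, 14 and 7 with MAFG. Neither difference passed in the A375 libraries alone (adjusted p = 0.826 and 0.887), and both passed when all 18 libraries shared a model (adjusted p = 0.0173 and 0.0164). The receptors had overlapping libraries, at 86.7 ± 9.75 against 78.7 ± 11.3 CPM for NOTCH1, 280 ± 11.1 against 292 ± 23.0 CPM for NOTCH2 and 9.88 ± 0.77 against 10.9 ± 1.67 CPM for NOTCH3 (GFP against MAFG, each with an adjusted p of 0.997). HES6, at 0.955 ± 0.37 and 1.02 ± 0.41 CPM, and DLL1, with 22 and 24 counts, overlapped as well. JAG2 had 2 counts in all GFP libraries and 17 in all MAFG libraries, the latter in a single library, and was not tested. The 4 factors summed to 0.84 to 1.14 TPM with GFP and 1.41 to 2.12 TPM with MAFG, and HES1 took 3.10% ± 5.37 and 45.3% ± 10.1 of these sums.

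Whether the response differed between lines was tested directly, as contrasts in a single edgeR model of all 18 libraries. Between WM164 and SKMEL28, 4 of the 10 Notch genes responded differently, all with the higher log2 fold change in WM164. NOTCH1 differed by 0.96 (standard error 0.15, adjusted p = 1.68e-04), NOTCH3 by 2.66 (0.47, 5.58e-04), JAG1 by 1.02 (0.22, 0.00278) and HES6 by 1.07 (0.25, 0.00667). No gene of the 10 had a lower response in WM164 that passed, also at an unadjusted p under 0.05 and with DESeq2. Of all 18767 genes tested, 7.39% had a higher and 6.32% a lower response in WM164. With DESeq2, and with a model of these 12 libraries only, 7 of the 10 differed, the added ones being NOTCH2 (adjusted p = 0.0206 and 0.0124), HEY1 (0.0113 and 0.00477) and HEY2 (0.0200 and 0.0147). On the TPM scales, NOTCH3 was lost on log2(TPM + 1) (0.0599) and JAG1 on log2(TPM + 0.1) (0.0849). HES1, which fell in both lines, did not pass this test of the difference (-0.22, standard error 0.23, adjusted p = 0.643), and HEY2 differed by 0.60, short of the threshold in the model of 18 libraries (adjusted p = 0.0792) but past it also without a count filter (0.0496) and on log2(TPM + 1) (0.00171) and log2(TPM + 0.1) (0.0447).

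Against A375, the mean response of WM164 and SKMEL28 was lower for HES1 and JAG1 and higher for NOTCH1. The differences on the log2 scale were -5.35 for HES1 (standard error 0.45, adjusted p = 6.67e-08), -1.97 for JAG1 (0.21, 2.31e-06) and 0.50 for NOTCH1 (0.13, 0.0157). Over all genes, 3.23% were higher and 4.66% lower in this contrast. Its standard errors rest on a spread shared by all 18 libraries, while chi-square per gene reached 96.7 within A375 and at most 15.1 outside it. In the edgeR fit of A375 alone, the standard errors were 0.99 for HES1 and 0.31 for JAG1. There neither rise passed (adjusted p = 0.0699 and 0.131), though both did with DESeq2. The size of the HES1 difference rests on the 5 counts of the A375 GFP libraries, and the fitted value went to -8.96 without the library that held them. The NOTCH1 difference came from WM164, as the fits per line gave log2 fold changes of 0.85 in WM164, -0.11 in SKMEL28 and -0.14 in A375. For NOTCH1, the adjusted p was 0.0554 without the A375 GFP library of replicate 3 and 0.0510 without the A375 MAFG library of replicate 2.

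The Notch genes also differed between the lines in GFP cells. WM164 and SKMEL28 GFP cells differed in 8 of the 10 genes, 5 higher and 3 lower in WM164, where 27.8% of all 18767 genes were higher and 29.0% lower. Compared with WM164, A375 cells had 2 genes higher and 7 lower, where 34.6% of all genes were higher and 36.9% lower. Compared with SKMEL28, A375 again had 2 higher and 7 lower, where 33.3% and 35.3% of all genes were. These 3 comparisons share GFP libraries pairwise, and levels in this and the next paragraphs are CPM normalized over all 18 libraries.

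The 4 chosen HES and HEY factors set A375 apart by their low levels. HES7, outside this choice, went the other way, at 7.61 ± 0.98 CPM in A375 against 0.982 ± 0.42 in WM164 and 0.0714 ± 0.07 in SKMEL28 GFP cells. HEY1 was at 68.8 ± 4.66 CPM in WM164, 41.1 ± 2.82 in SKMEL28 and 0.718 ± 0.27 in A375 GFP cells, and each line differed from each other one (adjusted p from 6.54e-18 to 2.11e-05). HES6 was at 27.8 ± 3.71, 22.1 ± 1.74 and 0.859 ± 0.33 CPM, with no call between the first 2 lines on counts (adjusted p = 0.116). HES6 was called higher in WM164 with a model of the libraries of these 2 GFP groups only (0.34, adjusted p = 0.00983) and without a count filter (0.36, 0.0467), and the sign turned on the TPM scales (-0.25 on log2(TPM + 1)). HES1 was highest in SKMEL28, at 43.0 ± 1.64 CPM, against 11.6 ± 1.88 in WM164 (log2 difference -1.89, adjusted p = 4.00e-09) and 0.0453 ± 0.08 in A375. HEY2 was highest in WM164, at 44.8 ± 1.51 CPM, against 3.96 ± 1.10 in SKMEL28 (log2 difference 3.48, adjusted p = 2.21e-13) and 0.210 ± 0.13 in A375. By CPM, which are not scaled by length, the abundant factor beside HEY1 was thus HEY2 in WM164 and HES1 in SKMEL28. Per length, HES6 exceeded HEY2 in each WM164 GFP library, at 24.3% ± 1.43 against 20.5% ± 1.52 of the 4 factors' summed TPM. Even with MAFG, the A375 levels of all 4 factors stayed below those of every condition of the other 2 lines.

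Among the ligands, JAG1 was highest in WM164 and lowest in A375. JAG2 was also highest in WM164, but its A375 and SKMEL28 libraries overlapped and did not differ past the threshold (adjusted p = 0.125, edgeR). Without a count filter that difference passed (0.0481). DLL1 did not follow this order. JAG1 was at 50.7 ± 1.47 CPM in WM164, 20.03 ± 0.39 in SKMEL28 and 2.18 ± 0.86 in A375 GFP cells. A375 differed from WM164 by a log2 value of -4.53 (adjusted p = 5.29e-15) and from SKMEL28 by -3.19 (adjusted p = 1.46e-12). JAG2 had 119 counts in the WM164, 10 in the SKMEL28 and 2 in the A375 GFP libraries, and DLL1 had 12, 86 and 22. WM164 and SKMEL28 thus differed in opposite directions for the 2 rarer ligands (adjusted p = 0.0163 for JAG2 and 0.0265 for DLL1). The JAG2 call was lost without the GFP library of WM164 replicate 2 or of SKMEL28 replicate 1 or 3 (adjusted p from 0.0523 to 0.0729), and the DLL1 call without that of WM164 replicate 1 or 2 or of SKMEL28 replicate 1 or 3 (0.0516 to 0.102). DLL1 was also lower in A375 than in SKMEL28 (adjusted p = 0.0382), a call lost without any of the 3 A375 libraries or SKMEL28 replicate 1 or 3 (0.0520 to 0.126). JAG1 made up 85.7% or more of the summed TPM of the 3 ligands on average in each of the 6 conditions.

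Among the receptors, NOTCH1 and NOTCH3 had their highest level in A375 and NOTCH2 its lowest. NOTCH1 was in A375, at 78.1 ± 8.57 CPM against 28.8 ± 0.88 in WM164 and 15.8 ± 0.41 in SKMEL28 GFP cells, and A375 exceeded them by 1.44 (adjusted p = 8.96e-11) and 2.30 (8.39e-14) on the log2 scale. NOTCH3 was at 8.90 ± 0.69 CPM in A375 against 1.24 ± 0.27 and 1.36 ± 0.02, with no call between WM164 and SKMEL28 on counts (adjusted p = 0.765), though WM164 was lower past the threshold on the log2(TPM + 1) scale (-0.32, adjusted p = 0.0257, limma) and the log2(TPM + 0.1) scale (-1.10, 0.00671). NOTCH2 had 1060 ± 76.8 CPM in SKMEL28, 451 ± 18.9 in WM164 and 252 ± 9.45 in A375, all 3 lines differing (adjusted p from 1.69e-15 to 2.93e-09). On the log2(TPM + 0.1) scale, WM164 and SKMEL28 no longer differed past the threshold in NOTCH1 (adjusted p = 0.0620), JAG1 (0.0905) and HEY1 (0.310). NOTCH1 was lost on the log2(TPM + 1) scale as well (0.21, adjusted p = 0.0971, limma). In A375 GFP cells, NOTCH1 made up 25.8% ± 2.05 of the receptors' summed TPM and NOTCH2 69.5% ± 2.83. The level of NOTCH1 in WM164 cells with MAFG, 51.9 ± 1.48 CPM, remained below both A375 conditions without overlap.

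**Figure D4:**
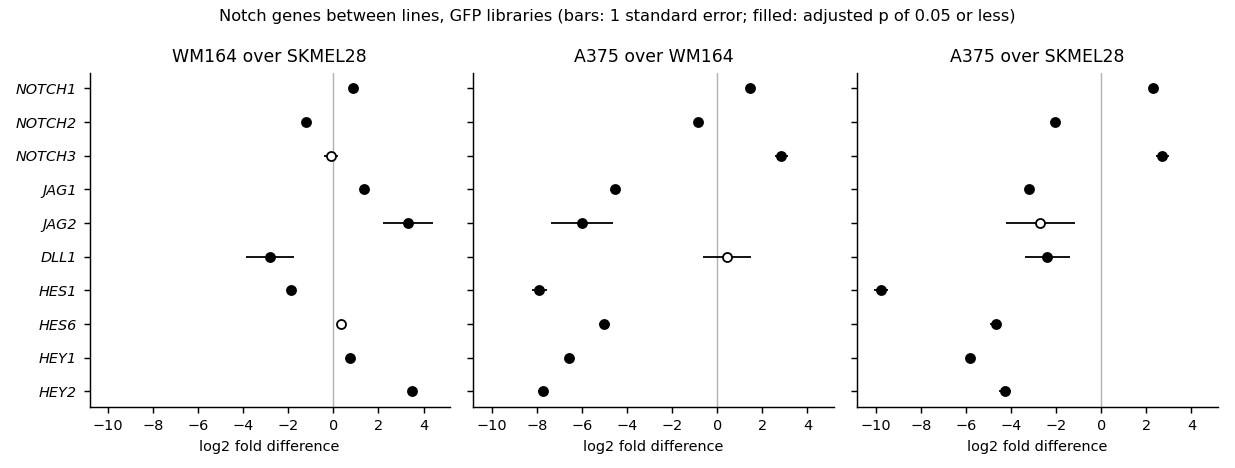
Log2 difference of each Notch gene between lines in GFP cells, from the model of all 18 libraries; bars are 1 standard error and filled circles have an adjusted p of 0.05 or less. A375 lies to the right of 0 for NOTCH1 and NOTCH3 and to the left for NOTCH2, JAG1 and the 4 factors; its JAG2 and HES1 values rest on 2 and 5 counts.

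Over the 6 conditions, most neighbours in the order of a gene's levels were separated. Whether the Notch genes differ in this from other genes was not tested, as the order was not computed for all genes. Separation within a line was common among all tested genes. MAFG and GFP libraries did not overlap for 43.4% of them in WM164, 43.0% in SKMEL28 and 12.8% in A375. For HEY1 and HES1 no 2 neighbouring conditions overlapped, from WM164 GFP down to A375 MAFG for HEY1 and from SKMEL28 GFP down to A375 GFP for HES1. JAG1 also had no overlapping neighbours, and WM164 GFP was its highest condition. HEY2 fell from WM164 MAFG, at 82.3 ± 2.66 CPM, to A375 GFP, and its 2 SKMEL28 conditions overlapped. For JAG2, the 4 conditions of SKMEL28 and A375 ran into each other, as did for DLL1 the 4 conditions of WM164 and A375.

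Outside the 10, the genes with the most similar profile over the 18 libraries were GADD45B for NOTCH1 (Pearson r of log2 CPM 0.994) and SPARC for HEY2 (0.996), with SPRED3 and SPRY4 next. HES1 was most like RCAN3 (0.989), HEY1 like PACSIN2 (0.995), HES6 like ECM1 (0.991), JAG1 like C3orf67 (0.982), NOTCH2 like LPIN1 (0.993) and NOTCH3 like CCDC85B (0.984). These values come from 14131 genes, describe 18 libraries that share 3 lines, and carry no test.

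The further genes of the pathway, 55 in a list of other ligands, processing enzymes, nuclear partners and regulators, moved in both directions. In WM164, 11 of 45 tested genes rose and 5 fell, where 16.2% of all tested genes rose and 15.6% fell. DNER, an atypical Notch ligand, rose from 1.60 ± 0.45 to 8.50 ± 1.05 CPM (log2 fold change 2.39, adjusted p = 3.83e-08), and DTX1, a ubiquitin ligase that is itself a Notch target, from 1.98 ± 0.24 to 4.40 ± 0.06 CPM (1.15, 2.81e-04; 0.271 with all 18 libraries in a model). The Mastermind coactivator MAML2 rose from 85.1 ± 3.16 to 141 ± 5.66 CPM (0.73, 1.47e-08). DLL3, a ligand that inhibits Notch within its own cell, fell from 45.3 ± 2.25 to 26.4 ± 2.38 CPM (-0.78, 6.33e-07), and DTX2 fell by 0.44 on the log2 scale. DLK2, an atypical ligand, rose by 1.55 on that scale (adjusted p = 0.0220), a call lost without the GFP library of replicate 3 (0.0739) or the MAFG library of replicate 2 (0.133).

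In SKMEL28, 9 of 43 tested genes of that list rose and 10 fell, beside 14.6% of all tested genes that rose and 15.3% that fell. Of the 9 genes for cleavage of the receptor, all tested, 6 fell, where 15.3% of all genes did, and the other 3 did not pass, with PSENEN, a γ-secretase subunit, going from 5.11 ± 0.89 to 2.72 ± 0.94 CPM (log2 fold change -0.91, adjusted p = 0.00933). APH1B, of the same complex, fell by 0.45 (adjusted p = 0.0402), a call lost on leaving out any of 5 single libraries, with an adjusted p of up to 0.179, and with DESeq2 (0.0694). Both genes of receptor glycosylation that passed rose, among them POGLUT1 with a log2 fold change of 0.43. The turnover genes DTX3 and NUMBL fell by 3.01 and 0.54 on the log2 scale, DTX3 from 1.31 ± 0.04 to 0.158 ± 0.16 CPM, and DTX4 rose by 0.67. DTX3 had at most 10 counts in any MAFG library, and its log2 fold change ranged from -4.20, without the MAFG library of replicate 2, to -2.57, without that of replicate 3. In A375, none of the 45 tested genes passed in edgeR or DESeq2, and 1 had an unadjusted p under 0.05.

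Between the lines, GFP cells differed in 32 of 50 tested genes of the list for WM164 against SKMEL28 (20 higher, 12 lower), in 35 for A375 against WM164 (10 higher, 25 lower) and in 34 for A375 against SKMEL28 (14 higher, 20 lower). Of all tested genes, 27.8% were higher and 29.0% lower, 34.6% higher and 36.9% lower, and 33.3% higher and 35.3% lower in these comparisons, in the same order. DLL3 was at 47.99 ± 2.498 CPM in WM164, 4.83 ± 1.40 in SKMEL28 and 2.43 ± 0.59 in A375. DLL4, the vascular Delta-like ligand, was at 1.34 ± 0.30 CPM in WM164 and had at most 2 counts in any SKMEL28 and 8 in any A375 library. HES7, known as the segmentation clock factor, was at 7.61 ± 0.98 CPM in A375 and had at most 3 counts in any SKMEL28 library. DTX3 was at 17.9 ± 0.74 CPM in A375 and 1.37 ± 0.04 in SKMEL28, with at most 3 counts in any WM164 library. NEURL1B, a ubiquitin ligase for ligands, was at 6.21 ± 0.72 CPM in SKMEL28 and 0.116 ± 0.11 in A375, and DLK2 at 0.200 ± 0.06 and 1.88 ± 0.25. The response itself differed between WM164 and SKMEL28 in 4 genes that were higher and 2 that were lower, where 7.39% and 6.32% of all genes did, and between their mean and A375 in 2 in each direction, where 3.23% of all genes were higher and 4.66% lower.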

How the data were processed

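Total RNA was sequenced in 18 libraries. Per the labels and methods, the authors trimmed reads with cutadapt 1.8.1, aligned them to GRCh38 with STAR 2.7.7a and deposited whole-number counts per gene, without normalization. TPM values, as the authors deposited them, have an equal sum per library, and the submitters' processing notes name RSEM 1.3.0. The methods describe a stranded kit and the labels a non-stranded one, so overlapping genes on opposite strands are uncertain.

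From the counts, MAFG was compared with GFP on the 6 libraries of each line with R 4.3.3 and edgeR 4.0.16 (TMM, filterByExpr, quasi-likelihood F test, Benjamini-Hochberg adjustment over all tested genes, threshold 0.05). Differences between lines and between responses were contrasts in a model of all 18 libraries. CPM were normalized within a line for responses and over 18 libraries for comparisons between lines and marker sums. Alternatives were DESeq2 1.42.0, its size factors in edgeR, other count filters, a replicate block, limma 3.58.1 on log2(TPM + 1) or log2(TPM + 0.1), other sets of libraries and each library left out. Positions are from GENCODE, promoters from RefSeq. Pathway genes were named if they passed with non-overlapping libraries, by size of change, up to 6 per line and 4 per comparison of lines; for each gene with a mean of at least 1 CPM the 2 most similar genes were taken. The members and lists were chosen with earlier results of these data known. Depth ranged from 20122172 to 39025042 counts, and n = 3 limits the precision of low counts most.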

Additional observations from a re-analysis of the deposited data

Results flagged for a closer look

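Responses to MAFG that differed between lines by a test of the difference itself were found for 5 Notch genes. The log2 fold change was higher in WM164 than in SKMEL28 by 0.96 for NOTCH1, 2.66 for NOTCH3, 1.02 for JAG1 and 1.07 for HES6. In the comparison of the mean of these 2 lines with A375 it was higher by 0.50 for NOTCH1, and the difference was -1.97 for JAG1 and -5.35 for HES1. The value of HES1 depends on 5 counts in the GFP libraries of A375, and that of NOTCH3 on 30 counts in the MAFG libraries of SKMEL28. The NOTCH1 difference from A375 came from WM164 (0.85 in the fit per line, against -0.11 in SKMEL28 and -0.14 in A375).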

How the results depend on the processing

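The count of Notch genes that passed stayed within 1.5 times its value in WM164 (4) and SKMEL28 (6) under each alternative run. In A375 it went from 0 to 2 with DESeq2, 2 without a count filter, 4 with all 18 libraries in a model, and between 0 and 2 with single libraries left out. With at least 10 counts in every library, which leaves 4 of the genes to be tested between lines, 3, 4 and 4 differed for WM164 against SKMEL28, A375 against WM164 and A375 against SKMEL28, and on the log2(TPM + 0.1) scale 4 differed for WM164 against SKMEL28. The response difference between WM164 and SKMEL28 went from 4 genes to 7 with DESeq2 and to 7 with the libraries of those lines alone. For the contrast with A375 the groups compared are all 18 libraries, so that this alternative is the same fit.

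Of the other pathway genes, 8 passed in WM164 on the log2(TPM + 1) scale, 7 on the log2(TPM + 0.1) scale and 10 with all 18 libraries, instead of 16. In SKMEL28 the numbers were 7, 7 and 12 instead of 19, and 12 to 16 with single libraries left out. In A375, leaving out libraries gave 0 to 1. The response difference gave 10 on the log2(TPM + 1) scale and 3 to 7 without single libraries, instead of 6, and the contrast with A375 gave 0 on both TPM scales and 1 to 6 without single libraries, instead of 4. The cause was not tested. Among named genes, calls lost on a TPM scale were HEY1 and DTX2 in WM164, DTX4, APH1B and POGLUT1 in SKMEL28, NOTCH1, JAG1 and HEY1 between WM164 and SKMEL28, and the response differences of NOTCH3 (adjusted p = 0.0599), JAG1 (0.0849) and, against A375, NOTCH1 (0.0715); with all 18 libraries, DLK2 and DTX1 in WM164 and APH1B were lost. On the log2(TPM + 1) scale, the median log2 value of all genes was 0.14 in WM164, -0.14 in SKMEL28 and -0.42 for WM164 against SKMEL28.

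Signs turned, apart from HEY1 below, only for values that had not passed and did not pass then. On both TPM scales (pseudocount 1, then 0.1) these were, in WM164, NOTCH2 (0.18, 0.18), JAG1 (0.0068, 0.0078) and HES6 (0.15, 0.16), in A375, NOTCH2 (-0.035, -0.037) and NOTCH3 (-0.12, -0.20), between WM164 and SKMEL28, HES6 (-0.25, -0.26), and the response difference of HES1 (0.22, 0.14). In the contrast with A375, HEY1 was -0.48 (adjusted p = 0.0450, limma) and -0.16, and HEY2 0.38 on log2(TPM + 1). With libraries left out, JAG2 (-0.27 to 0.19) and HES6 (-0.12 to 0.068) in WM164, NOTCH2 (-0.0039 to 0.11), DLL1 (-0.45 to 0.63) and HES6 (-0.25 to 0.41) in A375, NOTCH3 for WM164 against SKMEL28 (-0.30 to 0.0087), DLL1 for A375 against WM164 (-0.16 to 1.18), and JAG2 (-6.73 to 0.84) and DLL1 (-0.55 to 0.55) in the contrast with A375 crossed 0.

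Replicate numbers are shared between conditions, but same-numbered libraries did not deviate together (correlations from -0.033 to 0.023 over 18 pairs). With the replicate block, 4, 6 and 0 Notch genes passed in WM164, SKMEL28 and A375, and no call of a member changed, while DLL1 was -0.15 in A375 and -0.10 in the contrast with A375. Levels near 1 CPM or below (JAG2, DLL1, NOTCH3 and the A375 factors) are limited by depth.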
